A study of Homo sapiens with 6 samples.

Results

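Solute carriers are membrane proteins that move amino acids, sugars, nucleosides, ions, metals, vitamins and other small molecules across the cell surface and across the membranes of organelles. Most work as exchangers or cotransporters and draw on ion gradients rather than on ATP. They are named by family. SLC25 stands for carriers of which most sit in the inner mitochondrial membrane, and SLC7 for amino acid transporters. Some SLC7 members need a heavy subunit of family SLC3. In epithelial cells they supply nutrients and set pH and ion content, and a few of them are known to carry drugs.

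The solute carriers described here are the probe sets with a single gene symbol of the form SLC, a family number, a letter A, B, C or O and a member number. SLC2A1, SLC7A11, SLC30A1, SLC31A1 and SLC31A2 were left out, as were symbols of another form such as SLCO4A1, SLC35E3 and SLC35F2. This rule used the names only and gave 161 genes of the 7713 that the array names singly, read by 162 of its 8746 probe sets other than controls. Of the 162, 120 probe sets (119 genes) were bright enough to be tested, which is 74.1%, against 75% of all probe sets (6559 of 8746).

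The RNA came from A549, an established line derived from a human lung adenocarcinoma, measured on 6 short-oligonucleotide arrays. On 3 arrays the cells had been exposed for 1 hour to 50 µM of cisplatin, which binds DNA and crosslinks its strands. On the 3 control arrays they had been in regular growth medium for the same time, and both groups were then washed and kept without drug for 10 hours. The series text speaks of 3 independent experiments, but the labels do not say which arrays belong to the same experiment, and the line stands for a single tumour. The comparison asked which transcripts differ at that time after a short exposure.

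Median probe set intensity was 57.2 to 59.4 on the control arrays and 59.3 to 67.2 on the cisplatin arrays, with the highest value on cisplatin 2. Of the epithelial markers, 6 of 8 had a probe set with a single symbol, and their summed intensity was 8871 to 11245 on the control arrays and 8513 to 11090.0 on the cisplatin arrays. KRT18 had a control mean of 5810 and KRT8 one of 2145, whereas EPCAM (33.3) and CDH1 (37.3) had dim signals. Of 12 markers of blood, endothelial and stromal cells, 10 were on the array, with control means of -0.596 to 61.2, LUM, COL3A1 and CDH5 lowest. Their summed intensity was 238 to 315 on the control arrays and 233 to 372 on the cisplatin arrays.

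None of the 120 tested solute carrier probe sets passed the threshold in limma, an adjusted p under 0.05 over all tested probe sets, while 19 of the 6559 did (0.29%). An unadjusted p under 0.05 was reached by 5 solute carriers (4.17%), all with higher means after cisplatin, against 330 of all tested probe sets (5.03%, or 3.4% counting the higher ones). Of the 5, SLC6A13 and SLC22A17 lay below the brightness filter on the control arrays and were tested through their cisplatin values, so those 2 had to be higher. Groups that did not overlap were found for 10 solute carriers (8.33%), 9 higher and 1 lower after cisplatin, and for 721 of all tested probe sets (11%, or 7.42% higher and 3.57% lower). Both shares of the solute carriers lay near those of the whole array, so neither is a result about them. The count was 8 without control 1 (6.61%, against 6.02% of all tested), control 2 (6.67%, against 4.07%) or cisplatin 2 (6.78%, against 6.45%). Of these 8, only 3, 2 and 3 were among the 5. It was 4 without control 3 (3.36%, against 4.25%), 3 without cisplatin 1 (2.56%, against 4.67%) and 2 without cisplatin 3 (1.68%, against 4.07%). The number past the adjusted threshold was 0 in every one of these fits and also when probe sets were tested without the shared prior of limma.

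The 95% interval of the log2 fold lay within a 2-fold change in either direction for 115 of the 120 solute carriers (95.8%, against 97.4% of all tested). It lay within a 1.5-fold change for 73 (60.8%, against 66.5%). The 5 whose interval reached a 2-fold change were SLC39A7, SLC17A2, SLC22A17, SLC26A1 and SLC12A3. On dim probe sets the offset of 11.8 added before taking log2 makes a fold smaller than the ratio of the intensities.

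**Figure D1:**
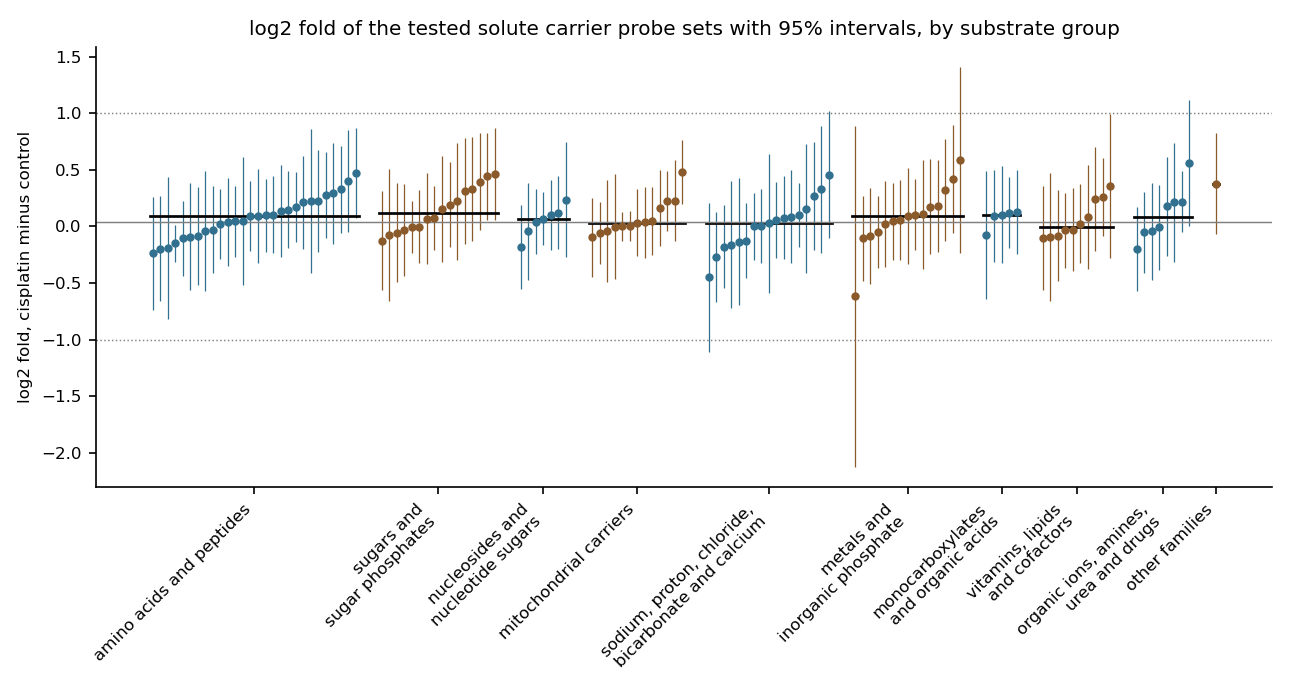
Points give the log2 fold (cisplatin minus control) of each of the 120 tested solute carrier probe sets and bars its 95% interval from limma, ordered by size within each substrate group; black bars mark group medians, the solid grey line the median of all 6559 tested probe sets (0.04) and dotted lines 2-fold changes. The intervals of 115 stay between the dotted lines, and the widest belongs to SLC17A2.

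The median log2 fold was 0.07 over the tested solute carriers and 0.04 over all tested probe sets, and the fold was above 0 for 79 of 120 (65.8%, against 60.5%). Rescaling the arrays moved the solute carriers and all tested probe sets together. With each array centred on its median, 59 of the 120 were above 0 (49.2%, against 41.3% of all tested) and the median was -0.004, and with quantile normalization 62 were (51.7%, against 49.8%), with a median of 0.01. The median of the solute carriers minus that of all tested was 0.03 as deposited and 0.01 with quantile normalization. Centring shifts every fold by the same amount, so it cannot change the difference of 0.03. The array cisplatin 2 gave the highest of the 3 cisplatin values for 67 of the 120 solute carriers (55.8%, against 41.8% of all tested). The median over the solute carriers was 0.04 without cisplatin 2, 0.05 without control 1, 0.06 without control 2, 0.08 without control 3, 0.09 without cisplatin 1 or cisplatin 3, and 0.02 without control 1 and cisplatin 2 together.

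Brightness went along with this. Of the 120, 78 lay below the median brightness of all tested probe sets, and there the median log2 fold was 0.09 and cisplatin 2 was the highest cisplatin array for 51 (65.4%). For the 42 above it the median was 0.04 and cisplatin 2 was highest for 16 (38.1%). The same split of all tested probe sets gave medians of 0.07 and 0.02, with cisplatin 2 highest in 53.5% and 30%. The part of the background level of cisplatin 2 in these folds was not tested.

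**Figure D2:**
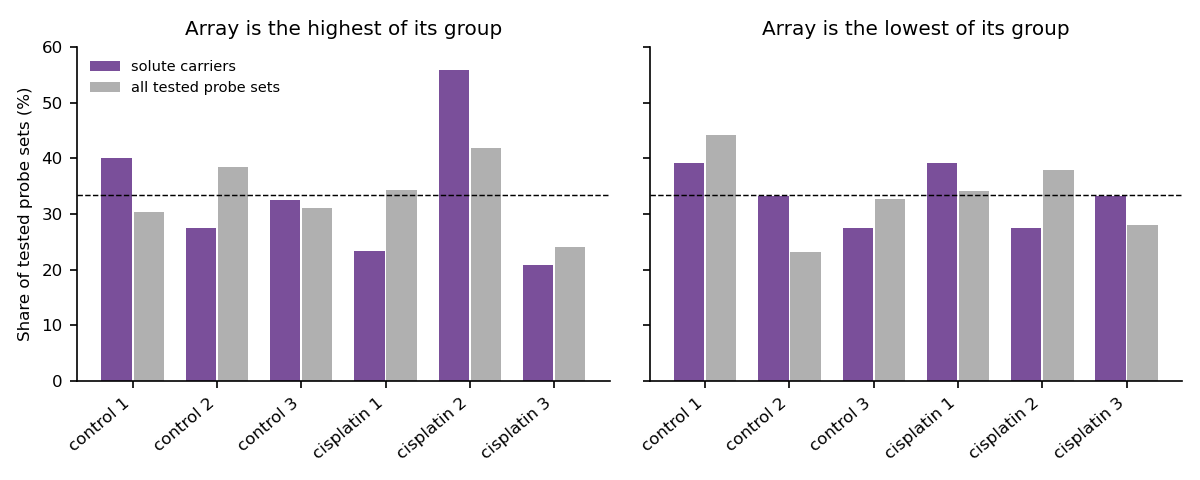
Bars give the share (%) of tested probe sets for which an array was the highest (left) or the lowest (right) of the 3 arrays in its group, for the 120 solute carriers and for all 6559 tested; the dashed line marks equal shares. Cisplatin 2 was the highest cisplatin array for 55.8% of the solute carriers and 41.8% of all tested probe sets.

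Of family SLC25, whose members are mostly carriers of the inner mitochondrial membrane, 13 of 14 probe sets were tested and 0 passed. SLC25A21 was below the filter. This group held the lowest p of all solute carriers, that of SLC25A15, which exchanges ornithine and citrulline for the urea cycle. Its intensities on the controls, in the order of their numbers, were 155, 175 and 143, and those after cisplatin 231, 215 and 229. All 3 cisplatin values lay above all 3 controls. The means were 158 ± 16.0 and 225 ± 8.93 (mean ± SD, n = 3 each), a ratio of 1.43, and the log2 fold was 0.49 (95% interval 0.20 to 0.77, SE 0.13). In limma the unadjusted p was 0.00355 and the adjusted p 0.381, so it did not pass. Its log2 fold lay between 0.41 and 0.56 over 15 alternative settings, with adjusted p values of 0.278 to 1.00.

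SLC25A4 and SLC25A5 encode ADP/ATP carriers, which export ATP from the matrix, and SLC25A3 the carrier that brings in phosphate. SLC25A4 read 244, 252 and 257 on the controls and 299, 267 and 324 after cisplatin. The groups did not overlap, but the log2 fold of 0.23 (interval -0.04 to 0.49) had an adjusted p of 0.999 in limma. SLC25A5 was the brightest solute carrier on the control arrays and had the smallest SE of the tested ones, with 4339, 4459 and 4339 on the controls and 4526, 4113 and 4540.3 after cisplatin. Its log2 fold was 0.003, with an interval of -0.12 to 0.13, and the cisplatin values lay on both sides of the controls. SLC25A3 went from 4152 ± 138 to 4169.7 ± 226, with an interval of -0.13 to 0.14. For these bright probe sets a change of 1.5-fold lies outside the interval. The ADP/ATP carriers are near-identical in sequence, and whether a probe set also reads a relative was not tested. The aspartate/glutamate carriers SLC25A12 and SLC25A13 had log2 folds of 0.03 and -0.06. The group as a whole had a median log2 fold of 0.03, and 12 of its 13 intervals lay within a 1.5-fold change. In 3 of the 13 the cisplatin values lay above all controls (23.1%, against 7.42% of all tested probe sets). These were SLC25A15, SLC25A4 and SLC25A17, and no test over the group was made. SLC25A17, also listed as PMP34, was dim, with 32.6, 39.6 and 40.3 on the controls and 48.3, 46.5 and 42.7 after cisplatin. Its log2 fold of 0.23 had an interval of -0.13 to 0.58.

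Of 37 probe sets for transporters of amino acids and peptides 28 were tested and 0 passed. The other 9 (SLC1A2, SLC38A3, SLC43A1, SLC6A14, SLC6A4, SLC6A6, SLC6A8, SLC6A9 and SLC7A2) were below the filter. The tested members had a median log2 fold of 0.09 and a range of -0.24 to 0.47, and 4 had groups that did not overlap (14.3%, against 11% of all tested probe sets): SLC6A13, SLC7A5, SLC1A4 and SLC6A3. SLC7A5, the light chain of the LAT1 transporter for large neutral amino acids, was the bright member of these and the only one of the 10 non-overlapping solute carriers that was lower after cisplatin. It read 2589, 2581 and 2280.0 on the controls and 2168, 2266 and 2267 after cisplatin. The lowest control and the highest cisplatin value were close, and the means were 2483 ± 176 and 2234 ± 56.7. The log2 fold was -0.15 (interval -0.31 to 0.01, adjusted p = 0.982 in limma).

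SLC3A2 encodes the CD98 heavy chain, which carries SLC7A5 to the cell surface. It read 524, 479 and 345 on the controls and 282, 519 and 355 after cisplatin. The groups overlapped widely, and the log2 fold of -0.24 had an interval of -0.73 to 0.26. SLC3A1, the other tested member of family SLC3, had a log2 fold of 0.04. Among other members of family SLC7, SLC7A6, SLC7A7, SLC7A8 and SLC7A9 had log2 folds of 0.17, 0.09, 0.09 and 0.29. SLC7A1, a transporter of cationic amino acids, had -0.19.

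SLC1A4 and SLC1A5 exchange small neutral amino acids, glutamine among them in the case of SLC1A5. SLC1A4 read 66.3, 74.6 and 49.3 on the controls and 75.7, 78.4 and 91.2 after cisplatin, groups that only just separate, with a log2 fold of 0.33 (interval -0.05 to 0.71, adjusted p = 0.999 in limma). SLC1A5 had 143 ± 18.6 and 145 ± 7.24 and a log2 fold of 0.02. The sodium-coupled glutamine transporters SLC38A1 and SLC38A2 had log2 folds of -0.08 and 0.10. SLC38A1 read 465 on control 1 and 720.0 and 706 on the other controls, a spread within the group wider than the difference between the group means.

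The rest of the amino acid group named by p are dim. SLC6A13, a transporter of the inhibitory transmitter GABA, read 21.8, 19.9 and 20.7 on the controls and 28.2, 36.6 and 36 after cisplatin. The groups did not overlap, and the log2 fold was 0.47 (interval 0.08 to 0.87, adjusted p = 0.795 in limma). SLC15A3, which moves histidine and small peptides out of lysosomes, had 22 ± 4.50 and 33 ± 7.59 and a log2 fold of 0.40 (adjusted p = 0.999). SLC6A3, the dopamine transporter of neurons, had 35.6 ± 4.77 and 45.6 ± 6.22. These 3 signals lay within the range of the markers that A549 should lack (up to 61.2), as did 96 of the 162 solute carriers on the control arrays (59.3%, against 51.2% of all probe sets), so they need not show that the gene is expressed. Probe sets differ in background, and that range is no detection call.

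**Figure D3:**
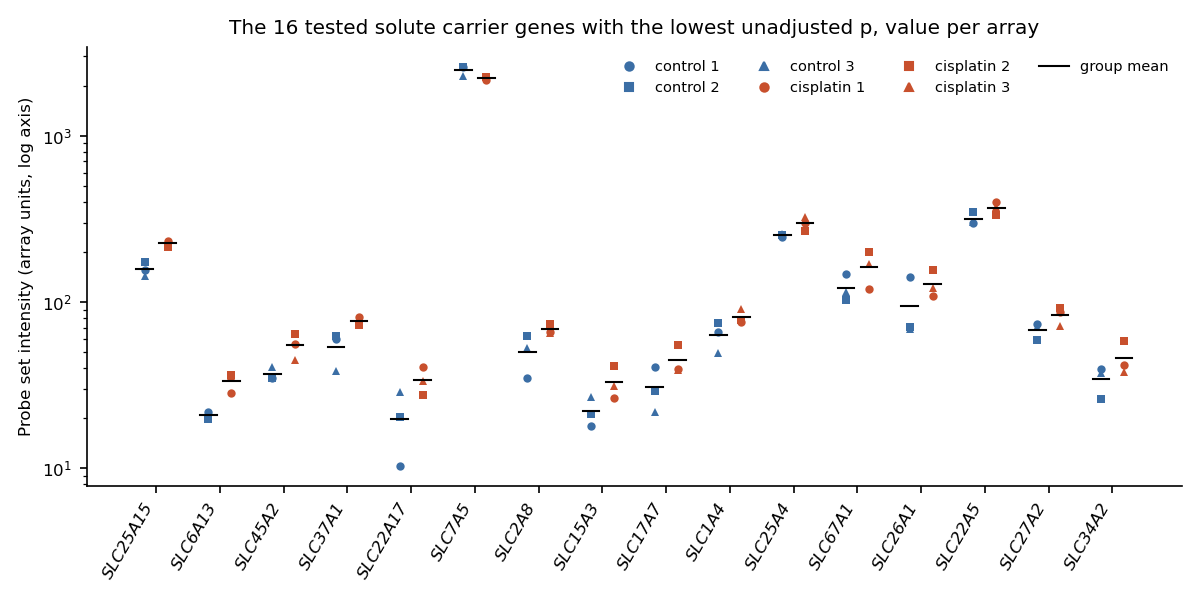
Points give the deposited probe set intensity (log axis) on each of the 6 arrays for the 16 tested solute carrier genes with the lowest unadjusted p, in order of p from the left, with bars at group means. In SLC25A15 the cisplatin values of 215 to 231 lie above the controls of 143 to 175, whereas most others are dim or overlap.

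For transporters of sugars and sugar phosphates 16 of 19 probe sets were tested (SLC2A10, SLC2A2 and SLC2A9 were below the filter), 0 passed, and the median log2 fold was 0.12. In 3 of the 16 (18.8%, against 7.42% of all tested probe sets) the cisplatin values lay above all controls. That is a count over few probe sets, and no test over the group was made. The 3 were SLC37A1, SLC45A2 and SLC2A8, with control means of 53.5, 37.0 and 50.3. Such signals lay within the range of the markers that A549 should lack (up to 61.2) and need not show that the genes are expressed. SLC37A1, a sugar phosphate exchanger of the endoplasmic reticulum, read 60.0, 62.1 and 38.3 on the controls and 80.9, 73.0 and 76.7 after cisplatin. Control 3 was the low array, and the log2 fold was 0.46 (interval 0.06 to 0.87, adjusted p = 0.854 in limma), or 0.28 without control 3. SLC45A2, known from the melanosomes of pigment cells, had 37.0 ± 3.36 and 54.9 ± 9.68 and a log2 fold of 0.44 (adjusted p = 0.826). SLC2A8, a glucose transporter of intracellular membranes, read 35, 62.6 and 53.2 on the controls and 65.6, 74.0 and 65.5 after cisplatin, with a log2 fold of 0.39 (adjusted p = 0.982). In SLC2A8 control 1 was far below the other controls, and without control 1 the log2 fold was 0.20.

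SLC37A4, the glucose-6-phosphate transporter of the endoplasmic reticulum, had a log2 fold of 0.33 with 138 on cisplatin 2 and 83.9 and 78.7 on the other cisplatin arrays. The facilitative transporters SLC2A3, SLC2A4 and SLC2A5 had log2 folds of 0.07, 0.07 and 0.32, the last of these a fructose transporter. SLC5A2, the sodium-coupled glucose transporter of the kidney, had the highest control signal of the group, 538 ± 28.8, and 536 ± 34.7 after cisplatin. Its log2 fold was -0.01 (interval -0.24 to 0.22), which leaves out a 1.5-fold change in either direction.

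Of the transporters of nucleosides and nucleotide sugars 7 of 9 were tested (SLC28A2 and SLC29A2 were below the filter), 0 passed and the median log2 fold was 0.07. SLC35B1, a nucleotide transporter of the endoplasmic reticulum, read 611, 575 and 541 on the controls and 555, 657 and 602 after cisplatin, with overlapping groups and an interval of -0.17 to 0.30. SLC35A1, which brings CMP-sialic acid into the Golgi, had 37.4, 83.1 and 49.7 on the controls and 65.3, 66.8 and 65.5 after cisplatin. Here the spread lay in the controls alone, and the log2 fold of 0.24 had an interval of -0.27 to 0.74. It was 0.02 without control 1 and 0.50 without control 2. SLC28A1, a concentrative nucleoside transporter, had a log2 fold of -0.18 (interval -0.56 to 0.19). SLC29A1, the equilibrative transporter through which many nucleoside drugs enter cells, had -0.04 (interval -0.47 to 0.39). Both were dim, with control means of 47.7 and 37.6 in the range of the markers that A549 should lack.

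For transporters of sodium, protons, chloride, bicarbonate and calcium 17 of 26 probe sets were tested and 0 passed. Groups that did not overlap were found for 0 of the 17, against 11% of all tested probe sets. With so few probe sets a count of 0 says little. SLC12A1, SLC12A5, SLC24A1, SLC24A3, SLC26A3, SLC4A10, SLC4A5, SLC4A8 and SLC8A1 were below the filter. The median log2 fold was 0.03. SLC26A1, a sulfate transporter, read 142, 70.8 and 69.2 on the controls and 108, 155 and 122 after cisplatin, a log2 fold of 0.46 (interval -0.10 to 1.02, adjusted p = 0.999 in limma). Control 1 was the high array, and without it the log2 fold was 0.76 and the adjusted p 0.214. SLC12A3, the thiazide-sensitive sodium chloride cotransporter, had 60.0 ± 30.3 and 38.9 ± 12.1, with control 2 at 94.1. Its log2 fold of -0.45 had an interval of -1.11 to 0.21 and was -0.13 without control 2 and -0.70 without control 1.

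SLC4A2, a chloride/bicarbonate exchanger that helps set cell pH, had 456 ± 67.5 and 417 ± 61.5 and a log2 fold of -0.12 (interval -0.46 to 0.21). SLC4A7, a sodium bicarbonate cotransporter, read 163 on control 1 but 309 and 338 on the other controls, and 287, 225 and 198 after cisplatin. In SLC26A2, a sulfate transporter, control 1 was likewise the low control, with 117 against 239.7 and 226. SLC12A2, the sodium, potassium and chloride cotransporter NKCC1, had 157 ± 10.3 and 158 ± 17.2, and its log2 fold of 0.001 lay between -0.30 and 0.30.

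Of the transporters of metals and inorganic phosphate, grouped with family SLC17, 15 of 21 were tested and 0 passed, with a median log2 fold of 0.09. The groups failed to overlap in 0 of the 15, against 11% of all tested probe sets, again a count over few probe sets. SLC17A1, SLC17A3, SLC17A6, SLC30A4, SLC34A1 and SLC39A2 were below the filter. SLC20A1, a sodium phosphate cotransporter, read 966, 1049 and 1116 on the controls and 1149.8, 790.3 and 1125 after cisplatin. Cisplatin 2 was the low array there, and the interval of the log2 fold was -0.36 to 0.27. SLC34A2, the phosphate cotransporter known from alveolar type II cells, was dim, with 34.3 ± 7.31 and 46.1 ± 10.8 and a log2 fold of 0.33 (interval -0.12 to 0.78). SLC17A7, a vesicular glutamate transporter of neurons, was also dim, with 30.7 ± 9.58 and 44.6 ± 9.16 and a log2 fold of 0.42.

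The zinc transporters SLC39A1, SLC39A6 and SLC39A8, which bring zinc into the cytosol, had log2 folds of 0.05, 0.10 and 0.09. SLC39A7, which releases zinc from the endoplasmic reticulum and Golgi, read 20.5, 77.4 and 17.3 on the controls and 50.2, 58.1 and 53.8 after cisplatin. The log2 fold of 0.59 rested on the arrays used: control 2 stood above every cisplatin value, and without it the adjusted p was 0.158 in limma, the lowest of any solute carrier over the fits without 1 array. SLC17A2 had the widest interval, -2.13 to 0.89, with 97.2, 8.79 and 79.8 on the controls and 53.1, 3.62 and 45.1 after cisplatin. In both groups the array numbered 2 was the low one.

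In the monocarboxylate and organic acid group 5 of 8 were tested (SLC13A1, SLC13A4 and SLC16A7 were below the filter) and 0 passed. SLC16A4, a member of the monocarboxylate transporter family, had 343 ± 44.2 and 374 ± 47.2, with an interval of -0.19 to 0.44, and SLC16A5, a second member, a log2 fold of 0.13. Of the transporters of vitamins, lipids and cofactors 10 of 11 were tested, SLC27A6 being below the filter, 0 passed, and the median log2 fold was -0.002. SLC27A2, which takes up and activates very long chain fatty acids, had 67.9 ± 7.60 and 84.0 ± 10.7 and a log2 fold of 0.26 (interval -0.08 to 0.61). SLC10A2, the bile acid transporter of the ileum, had 0.36 (interval -0.28 to 0.99), with 0.10 without control 2, 0.15 without cisplatin 2 and 0.61 without cisplatin 3. SLC44A4, a transporter of the choline transporter-like family, had -0.09. SLC19A1, the reduced folate carrier, had 99.8 ± 10.8 and 102 ± 16.5 and a log2 fold of 0.02.

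Of the carriers of organic ions, amines and urea 8 of 15 probe sets were tested and 0 passed. SLC18A1, SLC18A2, SLC18A3, SLC22A11, SLC22A6, SLC22A7 and SLC22A8 were below the filter. SLC22A2, the organic cation transporter known to carry cisplatin into kidney cells, read 64.9, 43.8 and 59.5 on the controls and 42.4, 65.0 and 55.2 after cisplatin. Its signal lay in the range of the markers that A549 should lack, the groups overlapped, and the log2 fold was -0.04 (interval -0.47 to 0.39). SLC22A5, the carnitine transporter, read 297, 346 and 304 on the controls and 401, 335 and 373 after cisplatin. Only cisplatin 2 fell among the controls, and the log2 fold of 0.22 had an interval of -0.05 to 0.49.

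SLC22A17, a receptor for lipocalin-2, was the only solute carrier gene with more than 1 probe set. The probe set with the higher mean log2 over all 6 arrays was the dimmer on the controls (19.9 against 22.6). It read 10.4, 20.4 and 28.9 on the controls and 40.7, 27.5 and 33.6 after cisplatin, a log2 fold of 0.56 (unadjusted p = 0.0484, adjusted p = 0.970 in limma). On the control arrays alone it lay below the filter, it was not tested without cisplatin 1, and its log2 fold was 0.33 without control 1. The other probe set read 24.4, 21.5 and 21.9 on the controls and 17.2, 30.2 and 40.4 after cisplatin, a log2 fold of 0.22 (interval -0.31 to 0.74). Both were dim and their groups overlapped, with different cisplatin arrays highest. SLC67A1, also listed as SLC22A18, lay outside the families grouped here, as did SLC75A1, which was below the filter. SLC67A1 had 122 ± 23.6 and 163 ± 39.9 and a log2 fold of 0.38 (interval -0.07 to 0.82).

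The 42 solute carriers below the filter had control means of 2.27 to 23.7. Of the last members outside it, SLC18A1 had a mean of 19.8 on the control and 25.1 on the cisplatin arrays and SLC24A3, a sodium, potassium and calcium exchanger, 7.91 and 39. Of the first members inside it, SLC6A2 had 21.5 and 27.5 and SLC1A1 22.7 and 26.1. With the filter lifted limma tested all 162 and called 0 of them; the unadjusted p was under 0.05 for 8 (4.94%, against 5.2% of all probe sets), of which 6 were higher and 2 lower after cisplatin. The lower ones were SLC16A7, with 11.8, 24.1 and 22 on the controls and 13.6, 8.75 and 5.39 after cisplatin, and SLC25A21, with 12.1, 7.17 and 12.1 and then 4.20, 2.05 and 5.23. Their log2 folds were -0.56 and -0.51. The higher ones below the filter were SLC6A9 (0.69) and SLC24A3. SLC24A3 had -22.7, 21.8 and 24.6 on the controls and 26.4, 47.7 and 43 after cisplatin. The value below 0 on control 1 was set to 0 for the fit, which gave a log2 fold of 1.04 (interval 0.07 to 2.00, adjusted p = 0.926).

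Proteins that serve solute carriers were read from a list of chaperones, sodium pump subunits, scaffolds and kinases. Of 15 genes tested, 0 passed in either direction and the median log2 fold was 0.08. NHERF1, a scaffold of sodium/proton exchangers, had 0.30 (adjusted p = 0.999 in limma) and SLC2A4RG, a transcription factor named for SLC2A4, 0.21. Of 27 transporter genes whose symbols have another form, 20 were tested and 0 passed in either direction, 1 had an unadjusted p under 0.05 (5%, against 5.03% of all tested), and the median log2 fold was 0.03. MPC1, a subunit of the mitochondrial pyruvate carrier, went from 110.5 to 138 on the mean, which is 0.29 on the log2 scale (adjusted p = 0.970 in limma). UCP2, an uncoupling protein of the same membrane and structurally a mitochondrial carrier, went from 343 to 411, which is 0.26 on that scale (adjusted p = 0.977).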

How the data were processed

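The authors deposited probe set intensities on a linear scale for 6 arrays, from -512.3 to 9153, with 723 of 52758 values at or below 0. The software and any scaling by the authors: not given in the sources used here. Values at or below 0 were set to 0, an offset of 11.8 (the 10th percentile of positive values) was added and log2 taken. Arrays were used as deposited, since their 75th percentiles spanned 0.15. The 47 control probe sets were left out, and probe sets at or above the 25th percentile of mean log2 were tested. limma 3.58.1 under R 4.3.3 (lmFit, eBayes with an intensity trend, two-sided) compared the groups, with Benjamini-Hochberg adjustment over 6559 probe sets. The smallest p of an exact test with 3 arrays a group is 0.1, and no such test was run. The fit was tested on simulated data. Figures used matplotlib 3.10.9 under Python 3.11.15.

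Symbols came from the platform's probe table, where 7840 probe sets had 1 symbol, 388 several and 518 none. All 162 solute carrier probe sets matched RefSeq of GRCh38.p14 by Entrez identifier, with 0 symbols changed. Substrate groups follow the family number, so a member may carry something else or sit in another membrane. A gene is represented by its brightest probe set. Named were the 16 genes with the lowest p, and in each substrate group the 2 with the lowest p and the brightest on the control arrays; from the other lists, the 2 with the lowest p. Other genes were named for their role or their values, after the values were seen. The members and lists were chosen with earlier results of these data known. Precision is limited by the number of arrays. The arrays also differed in the 3' to 5' signal ratio of the ACTB control probe sets. It was 2.20, 2.98 and 2.95 on controls 1 to 3 and 3.67, 2.67 and 2.94 on cisplatin 1 to 3. Its part in the folds was not tested. Replicates are arrays the labels number within a group. Alternatives covered scaling, offset, filter, variance prior, replicate block, an ordinary test and leaving out arrays.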

Additional observations from a re-analysis of the deposited data

How the results depend on the processing

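The number of solute carriers past the threshold was 0 under all 16 alternatives run, and the number with an unadjusted p under 0.05 was 2 to 9. As a share of those tested this was 1.67% to 7.63%, against 2.93% to 7.14% of all tested probe sets. The median log2 fold of the solute carriers, 0.07, was -0.00363 with arrays centred on the median, 0.0113 with quantile normalization, 0.0159 without control 1 and cisplatin 2 together (chosen after seeing the data) and 0.0422 to 0.0930 without 1 array. The cause was not tested. Of 409 values of 28 named genes under alternatives, 394 kept the direction of the log2 fold and 15 did not. Fits with another filter, no intensity trend or the replicate block leave each log2 fold as it was. Their values could not turn, so the 394 overstates how steady the directions were. The 15 belong to 5 genes with folds near 0. SLC25A5 had -0.0688 with arrays centred on the median, -0.0339 with quantile normalization and -0.0212 to 0.0499 without 1 array, SLC35B1 -0.00384 with centring, SLC20A1 -0.142 to 0.125 without 1 array and 0.0714 without both arrays, SLC44A4 -0.380 to 0.0853 and SLC5A2 -0.0524 to 0.0391 without 1 array.

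Leaving out 1 array moved the log2 fold by over 1.5 times, or turned it, for 20 of the 28 named genes. With the replicate block, 0 solute carriers passed, 2 had an unadjusted p under 0.05 (1.67%, against 2.93% of all tested), and the median was 0.0685. Equal numbers are not said to share an experiment: deviations of arrays with equal numbers correlated at -0.56, -0.31 and -0.12 over all tested probe sets, and 0 of 6 arrays lay closest to its own number. Between the groups, arrays with unlike numbers correlated at -0.21 (control 3 and cisplatin 2) to 0.40 (control 1 and cisplatin 2). The dim members were measured less precisely: the median SE of the log2 fold was 0.19 for those below the median brightness and 0.14 for those above it. The same split of all tested probe sets gave 0.19 and 0.13. The part of background signal in this was not tested.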
